A study of Mus musculus with 87 samples.

Results

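ETn elements are long terminal repeat (LTR) retrotransposons of the mouse that still move. At 3 sites a single animal gave strong read support for an ETn element that was not called in any other animal. They are the read clusters in Palld (chr8:64106528-64107341) and Syt7 (chr19:10484877-10485530), with an intergenic cluster on chromosome 6 (chr6:98344971-98345952) as the third strong site, all in build mm9. These are 3 of 5018 loci in the series and were chosen by their reads, so their own levels are given as a description without a test. Genomic DNA from 74 mice and 2 embryonic stem (ES) cell lines had been enriched with probes for the ETn LTR ends and sequenced in 87 libraries, 76 of them the main library of an animal or line. Each library totalled 525419 to 1046650 ETn-paired reads (median 736479), and levels are given as reads per 1e6 reads of that total (RPM). The 74 mice and 2 lines were of 4 backgrounds. B6 animals were Chr4-cl WT, KO/KO, KO/KO (F3) or KO/KO (F4) and the ES lines Chr4-cl KO/WT, B6x129X1/SvJ (F1) animals were Chr4-cl WT, KO/WT, KO/KO or KO/KO (F2), and B6x129X1/SvJ (F2) animals were likewise WT, KO/WT, KO/KO or KO/KO (F2). The 8 animals of the Chr2-cl mating, which concerns a deletion on chromosome 2, had a mixed background of B6, 129/Sv and 129/Sv-CP and were Chr2-cl WT, KO/WT or KO/KO.

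The carriers came from B6x129X1/SvJ (F2) animals of the Chr4-cl line, whose deletion removes KRAB zinc finger protein genes clustered on chromosome 4. M05666 (Chr4-cl KO/KO, replicate 3 of its group) carried the Palld site and M05139 (Chr4-cl WT, replicate 1) the Syt7 site. They were siblings from mating 3, C7416 x C7249, whose parents were both Chr4-cl KO/WT and which gave 4 KO/KO and 4 WT animals with a tail library each. H03387 (Chr4-cl KO/KO (F2), replicate 2) carried the chromosome 6 site and came from C6765 x C6733, both Chr4-cl KO/KO offspring of BA27227 x BA27232. C7416 came from that same mating and C7249 from BA27228 x BA27084, and all 4 of these grandparents were sequenced. The deletion had been made in B6 ES cells, and the labels give no age apart from the adult tail samples. Each carrier is 1 animal, so no level at a site has a biological replicate.

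ETn elements lack the genes for their own movement and use the proteins of the related ETnERV (MusD) elements. KRAB zinc finger proteins bind such elements and recruit a corepressor that silences them in early embryos. An element that inserts in the germ line or in the fertilised egg is present in every cell of the animal on one of both chromosomes, whereas one that inserts later is present in a part of the cells. In capture libraries an insertion is seen as a cluster of uniquely mapped reads whose mates lie in an ETn or ETnERV repeat. The study counted both kinds as ETn, so the read counts do not tell which of them inserted. The cluster marks the flanks of an insertion and gives neither its exact point nor its orientation. Palld encodes palladin, an actin-binding scaffold of stress fibres and focal adhesions, and Syt7 encodes synaptotagmin-7, a membrane calcium sensor for vesicle and lysosome exocytosis.

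The probes enriched DNA from the ends of the ETn LTR, and a site was joined to an ETn element by the mates of its reads. Of 1274 ETn probes in the design, 902 were distinct. The most frequent one beginning with the LTR's first bases occurred 52 times and the most frequent one ending with its last bases 50 times. They are shown because reads from both flanks depend on them, with the terminal bases of the LTR in capitals.
LTR start probe: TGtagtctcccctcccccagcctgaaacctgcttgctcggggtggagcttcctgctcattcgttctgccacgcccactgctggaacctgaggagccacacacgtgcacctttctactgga
LTR end probe: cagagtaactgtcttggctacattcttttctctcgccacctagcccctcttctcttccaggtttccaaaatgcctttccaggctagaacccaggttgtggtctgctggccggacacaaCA

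The reference sequence at the middle of each cluster, 300 bases of the plus strand in mm9, shows the DNA that flanks or receives the inserted element. The Palld window is chr8:64106785-64107084, the Syt7 window chr19:10485054-10485353 and the chromosome 6 window chr6:98345312-98345611. No base is capitalised, since the insertion point was not resolved.
Palld window: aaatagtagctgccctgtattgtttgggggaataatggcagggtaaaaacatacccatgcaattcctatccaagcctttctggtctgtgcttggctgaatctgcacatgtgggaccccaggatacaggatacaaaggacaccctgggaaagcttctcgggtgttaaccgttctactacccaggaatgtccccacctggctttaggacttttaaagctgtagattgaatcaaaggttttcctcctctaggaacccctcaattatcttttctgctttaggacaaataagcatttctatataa
Syt7 window: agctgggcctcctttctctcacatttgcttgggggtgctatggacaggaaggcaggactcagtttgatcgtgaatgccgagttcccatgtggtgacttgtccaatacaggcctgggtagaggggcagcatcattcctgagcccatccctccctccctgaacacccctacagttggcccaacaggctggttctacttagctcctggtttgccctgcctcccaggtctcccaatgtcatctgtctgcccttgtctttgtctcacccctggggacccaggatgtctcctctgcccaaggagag
Chromosome 6 window: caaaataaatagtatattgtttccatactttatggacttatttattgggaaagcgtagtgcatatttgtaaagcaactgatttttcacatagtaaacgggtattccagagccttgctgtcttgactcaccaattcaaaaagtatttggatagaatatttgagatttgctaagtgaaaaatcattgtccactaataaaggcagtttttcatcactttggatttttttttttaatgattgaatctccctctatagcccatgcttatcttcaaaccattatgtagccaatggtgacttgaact
The windows differed in base composition, with 44% G and C at Palld, 57% at Syt7 and 32.3% at the chromosome 6 site. None of the ETn probes matched the reference within 10000 bp of any of these clusters. Of 2159 loci called in every main library (fixed loci), 2155 had a match within 1000 bp. Of 854 single-animal loci (defined below, C5733 left out, these clusters among them), 2 had one. The germ line loci Cyfip2 and Snx10, described below, also had no match within 10000 bp, while Sntb1 had one. Within 500 bp of the middle of the cluster, 100% of 50-base words at Syt7 and at the chromosome 6 site occurred once in the genome. At Palld it was 96.2%, with 92.4% on the lower-coordinate side and 100% on the other.

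Palld lies on the minus strand at chr8:63992043-64381487 (ENSMUSG00000058056.8) and is longer than or as long as 98.5% of protein-coding genes. The cluster fell in an intron of 5 of its 11 annotated transcripts, and the other 6 did not reach it. In the transcript with the longest coding sequence it lay in intron 9 of 20, which spans 134489 bp. It was 56190 bp past the preceding exon and 77485 bp before the next, with 47.0% of the coding bases upstream. Syt7 lies on the plus strand at chr19:10463580-10527671 (ENSMUSG00000024743.7). Its cluster fell in an intron of all 4 transcripts, in intron 1 of 10 of the longest coding one, 20873 bp past exon 1 and 2299 bp before the next exon. Only 10 complete codons, 1.82% of the coding bases, lay upstream of that intron. The genes on either side were Cbr4 and Ddx60 for Palld, 124248 bp and 299542 bp from the cluster, and Dagla and Lrrc10b for Syt7, 105509 bp and 45048 bp away. The chromosome 6 cluster overlapped no annotated gene, and its nearest coding genes were Gm765 at 52222 bp and Foxp1, a forkhead transcription factor gene, at 529379 bp.

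**Figure D1:**
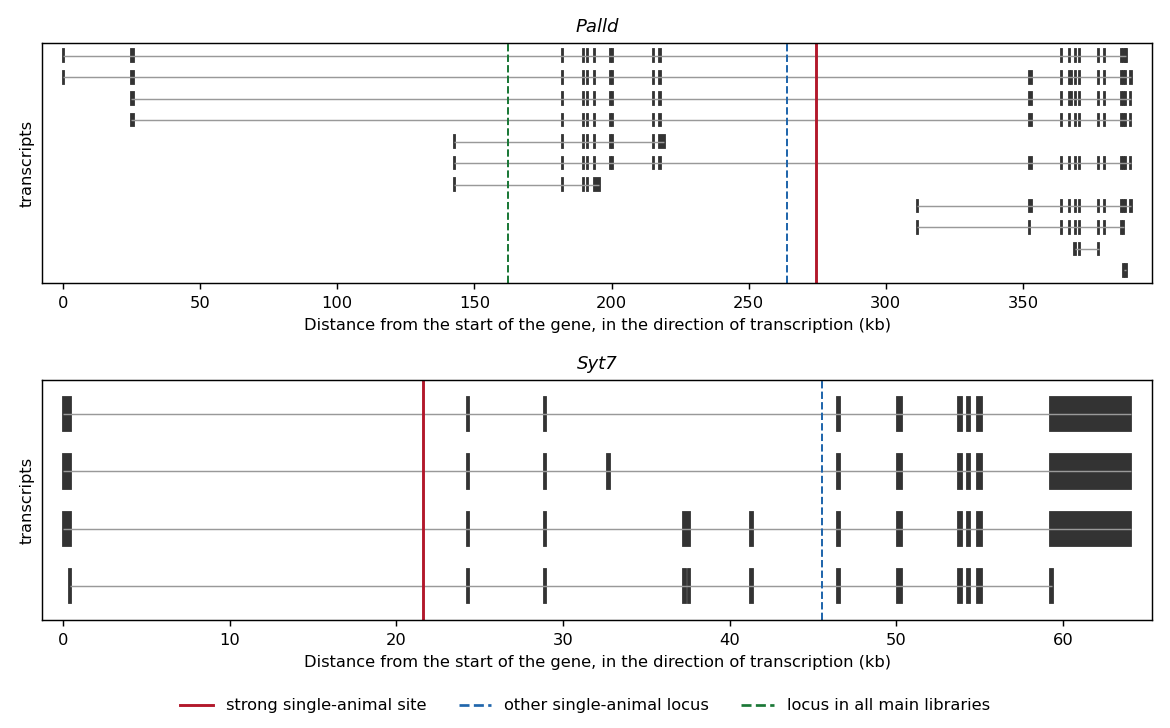
Transcripts of Palld and Syt7 (rows, exons as dark boxes) against the distance from the start of the gene in kb, with vertical lines at the read clusters. The Palld site sits in the long gap that 5 transcripts span, and the Syt7 site in the first intron, shortly before the second exon.

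At Palld, M05666 held 201 reads, 293 RPM (exact 95% binomial interval 254 to 337). The cluster was 1 region of 814 bp. The other 7 mating 3 animals held 0 reads out of 4456881 in all, which allows up to 0.673 RPM for 3 reads over their total. The parents held 0 reads in 3 libraries, including a second tail sample of C7416 taken as an adult, and the 6 sequenced ancestors held 0 reads in 7 libraries. No other library in the series overlapped the cluster, so its reads came from 1 of 87 libraries. Intervals cover counting error only, and take the reads left after duplicates were dropped as independent counts. The study's methods describe no molecular identifiers.

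Reads also lay just outside the Palld cluster in animals of other families. T00435 (B6/129 F1, Chr4-cl WT) and the Chr2-cl KO animals C6735 and C6766 held 1 read each between 64106409 and 64106463, 64 to 69 bp before the first base of the cluster. They fell on the side of the cluster where fewer 50-base words were unique, and the part of that in these reads was not tested.

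At Syt7, M05139 held 53 reads, 81.9 RPM (61.3 to 107), in 1 region of 654 bp. The other 7 siblings held 0 reads out of 4495116, which allows up to 0.667 RPM. Parents and all 6 ancestors again held 0 reads, and no other library had a read within 10000 bp. The 2 sites were therefore in different siblings, 1 KO/KO and 1 WT, and neither sibling held a read at the other's site. The level at Syt7 was 0.279 times that at Palld (exact 95% interval of the ratio of 2 counts, scaled by library totals, 0.202 to 0.380).

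At the chromosome 6 site, H03387 held 174 reads, 283 RPM (242 to 328), and its technical repeat library held 189 reads, 298 RPM (257 to 344). The repeat gave 1.05 times the first value (0.854 to 1.303), so both libraries of this animal agree within counting error. The level was 0.965 times that at Palld (0.783 to 1.19), and Syt7 stood at 0.289 times it (0.209 to 0.396). Other libraries held a few overlapping reads here, as was also so at the germ line loci described below, where libraries that did not carry the element held 1 or 2 reads in 2 cases at Cyfip2, 2 at Sntb1 and 5 at Snx10. The littermate H03384 had 1 read, the blood library of the father C6733 had 2 reads, and the repeat library of C5734, a KO animal of mating 2, had 1. At the chromosome 6 site the main tail library of C6733 and the libraries of its other organs, 6 in all, held none.

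**Figure D2:**
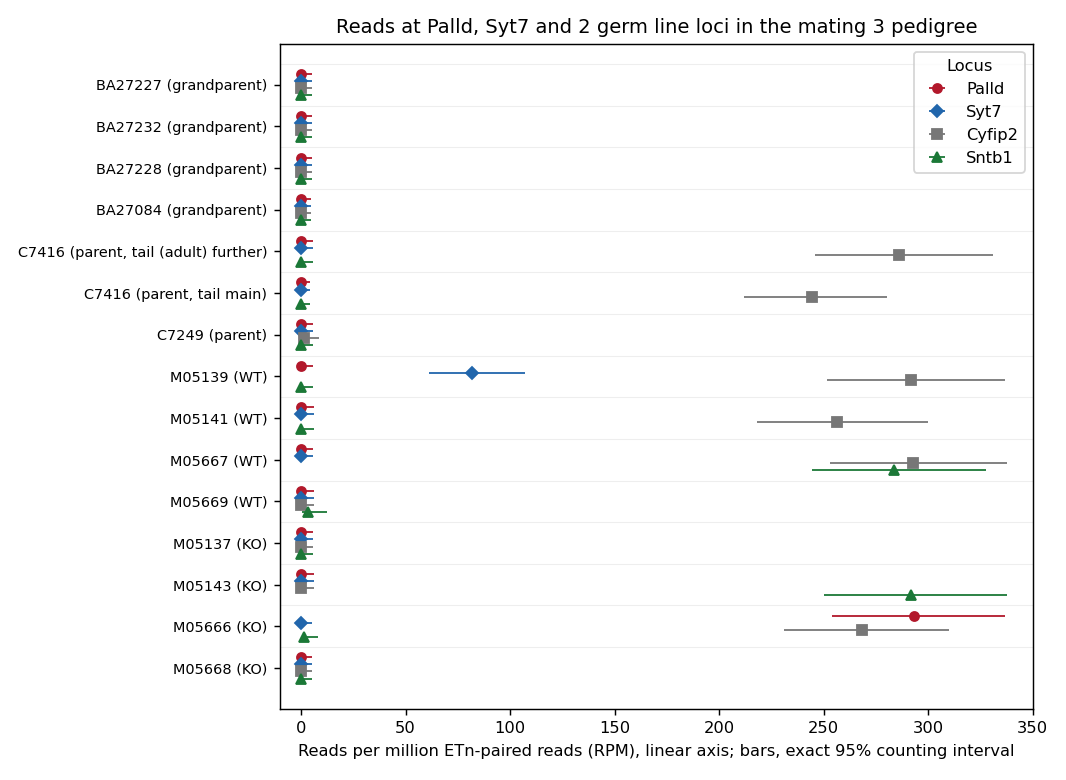
RPM (horizontal axis, linear) at Palld, Syt7 and the germ line loci Cyfip2 and Sntb1 in each library of the mating 3 pedigree (rows), with exact 95% counting intervals as bars. Palld is high in M05666 alone and Syt7 in M05139 alone, and Cyfip2 passes from C7416 to 4 offspring at 257 to 293 RPM.

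The level of an inherited element on 1 of both chromosomes was read from obligate heterozygous loci of the same library. These are autosomal loci with 100 RPM or more in 1 parent and no read in any library of the other. In the carrier they had to hold 10 RPM or more, and their choice did not use the sites. M05666 had 21 of them, from 86.0 to 370 RPM with a median of 181. Palld was at 1.62 times this median (1.40 to 1.86), and 18 of the 21 were at or below it. M05139 had 20, from 91.1 to 352 RPM with a median of 188. Syt7 was at 0.434 times this median (0.325 to 0.568), and 0 of the 20 were at or below it. H03387 had 5, from 109 to 194 RPM with a median of 161, and the chromosome 6 site was at 1.76 times the median (1.51 to 2.04), above all 5. Palld and the chromosome 6 site were thus within or above the range of the loci so defined, and Syt7 was below its lowest member. These intervals take the median as fixed. The rule of no read in the other parent leaves out inherited loci with even 1 read there, such as Cyfip2 (1 read in C7249). For H03387 it covers all libraries of the father C6733, further organs included. With the main library of each parent alone, the class of H03387 held 11 loci and the ratio was 1.55. With under 10 RPM allowed in the other parent, the classes held 53, 53 and 27 loci. The ratios were then lower, at 1.55 for Palld, 0.398 for Syt7 and 1.51 for the chromosome 6 site. The ranges of these wider classes were not computed.

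The heterozygous loci also give the library error that the sites lack. Over the 8 mating 3 siblings, 26 loci found in 1 parent and carried by 3 or more siblings varied with a median coefficient of variation of 6.22% (quartiles 5.604 and 7.02, highest 11.7). This is the spread of 1 locus between animals, and the levels of different heterozygous loci in 1 library ran more widely, as given above. The 2 carriers shared 15 of the 26 loci found in either.

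Loci called in no B6 library resemble a new insertion in that the reference, which is B6, lacks the element. Against heterozygous loci not called in any B6 library, a comparison chosen after the data were seen, Palld was at 1.73 times the median of 6, Syt7 at 0.438 times the median of 9 and the chromosome 6 site at 2.49 times the median of 3. The cluster width at Palld (814 bp) lay inside the range of the heterozygous loci of its library (374 to 1518 bp, median 844), as did that at Syt7 (654 bp against 400 to 1454, median 759). The chromosome 6 cluster, 684 bp in the first library, was wider than all 5 heterozygous loci of that library (488 to 676 bp).

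Against the 2028 autosomal fixed loci of the same library, Palld was at 0.648, Syt7 at 0.182 and the chromosome 6 site at 0.613 times the median. These levels had 26.4%, 10.01% and 25.6% of fixed loci at or below them. The median heterozygous locus was at 0.40, 0.418 and 0.349 times the fixed median in the same 3 libraries. The order turned for Palld and the chromosome 6 site among the 204 fixed loci under 2000 bp wide, where they were at 2.79 and 2.66 times the median.

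**Figure D3:**
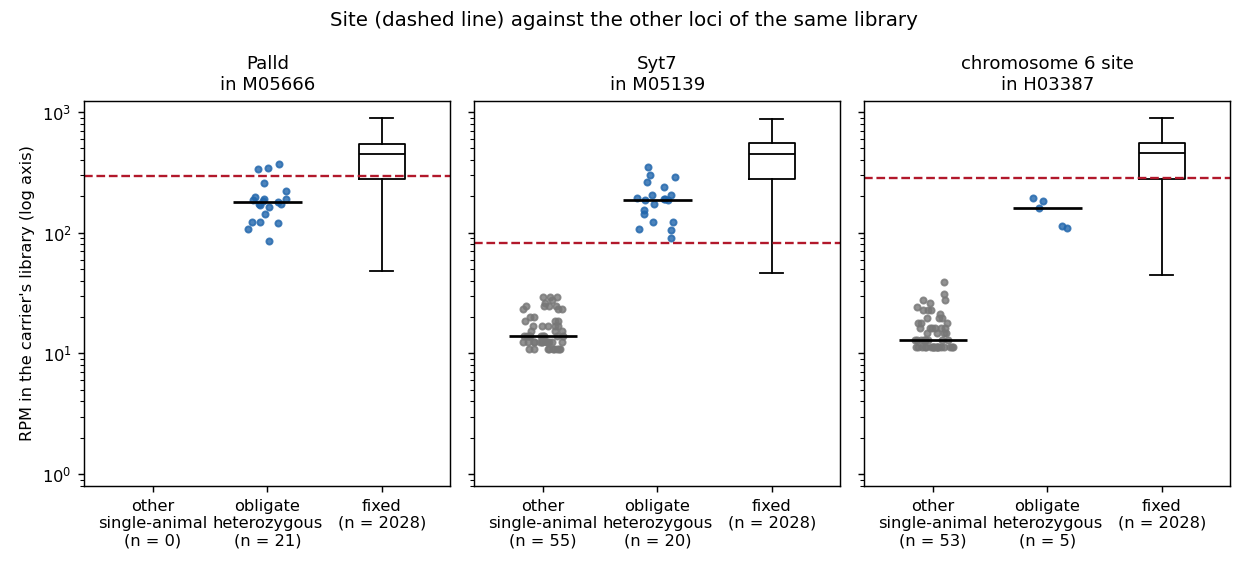
RPM (log axis) of the other single-animal loci, the obligate heterozygous loci and the fixed loci in each carrier's library; points are loci, bars are medians, boxes show quartiles with whiskers at the percentiles 5 and 95, and the dashed line is the site. The line passes through the upper heterozygous loci for Palld, between the single-animal and the heterozygous loci for Syt7, and above all 5 heterozygous loci for the chromosome 6 site.

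A new insertion that entered the germ line gives a second yardstick. The Cyfip2 locus on chromosome 11 was carried by C6927 and C7416, and by 4 mating 3 offspring, among them both carriers. In M05666 it held 184 reads, 268 RPM, and Palld had 1.09 times as many reads (exact 95% interval of the ratio of 2 counts 0.890 to 1.34). In M05139 it held 189 reads, 292 RPM, and Syt7 had 0.280 times as many (0.203 to 0.382). These ratios describe sites that were chosen by their reads. Cyfip2 encodes a subunit of the WAVE complex that regulates actin, Snx10 a sorting nexin of endosomes and Sntb1 a syntrophin of the dystrophin complex. Over all carriers Cyfip2 held 269 ± 19.6 RPM (SD, n = 6), the locus near Snx10 273 ± 14.02 (n = 3) and the locus in Sntb1 288 ± 5.55 (n = 2). Together the 11 values ran from 244 to 293 RPM with a mean of 274 ± 16.9. The chromosome 6 site, at 283 RPM, lay inside this range. Palld, at 293.1 RPM, was level with its highest value (292.8 RPM, Cyfip2 in M05667), and Syt7 was below it.

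Strong loci without a read in a parent were rare. In 46 animals with both parents sequenced, 8121 loci at 100 RPM or more that were not fixed were looked for in the parents' main libraries. Only 9, 0.111%, held no read there. These were Snx10 in 3 animals, Cyfip2 in 2, Sntb1 in 2, Palld in M05666 and the chromosome 6 site in H03387, as the choice of the members had fixed for the last pair. The 2 reads in the blood of C6733 lie outside the main libraries. In M05666 174 of 175 such loci were found in a parent (99.4%, exact 95% interval 96.9 to 100), in H03387 164 of 165 (99.4%, 96.7 to 100) and in M05139 all 168 (100%, 97.8 to 100). Syt7, at 81.9 RPM, was under the cutoff of this check. At 50 RPM or more, 99.5% of 195 loci in M05139 were found in a parent, and Syt7 was not. The same share was not computed for animals that are not the parents, so it does not test the labels.

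Most other single-animal loci were weak. A single-animal locus has 10 RPM or more in 1 animal, is called in no other and holds no read in the main libraries of its sequenced ancestors. The chromosome 6 site counts among them by this definition. There were 1268 with a median of 14.8 RPM. C5733, a WT animal of mating 2 whose library stood apart, held 414 of them. Without it 854 remained, with a median of 13.9 RPM and none outside the 3 sites above 49.3. The highest in C5733 had 81.6, 76.3 and 72.8 RPM, close to Syt7, but spanned 4201 to 5240 bp and had reads in 18 to 30 other libraries. In M05139 the other 55 single-animal loci had a median of 13.9 RPM and Syt7 was at 5.89 times it (4.41 to 7.70). The next in that animal, on chromosomes 6 and 8, held 19 reads each, 29.3 RPM. In H03387 the other 53 had a median of 13.0 RPM and the site was at 21.8 times it. They were led by loci in Blnk (24 reads, 39.0 RPM), 1700112E06Rik (19 reads, 30.9 RPM) and Agbl4 (17 reads, 27.6 RPM). The Agbl4 locus was tied with a locus on chromosome 18 that also held 17 reads. M05666 had no other single-animal locus, so Palld was its only one. Of its 7 siblings the KO animal M05137 had 0 and the other 6 had 12 to 91.

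**Figure D4:**
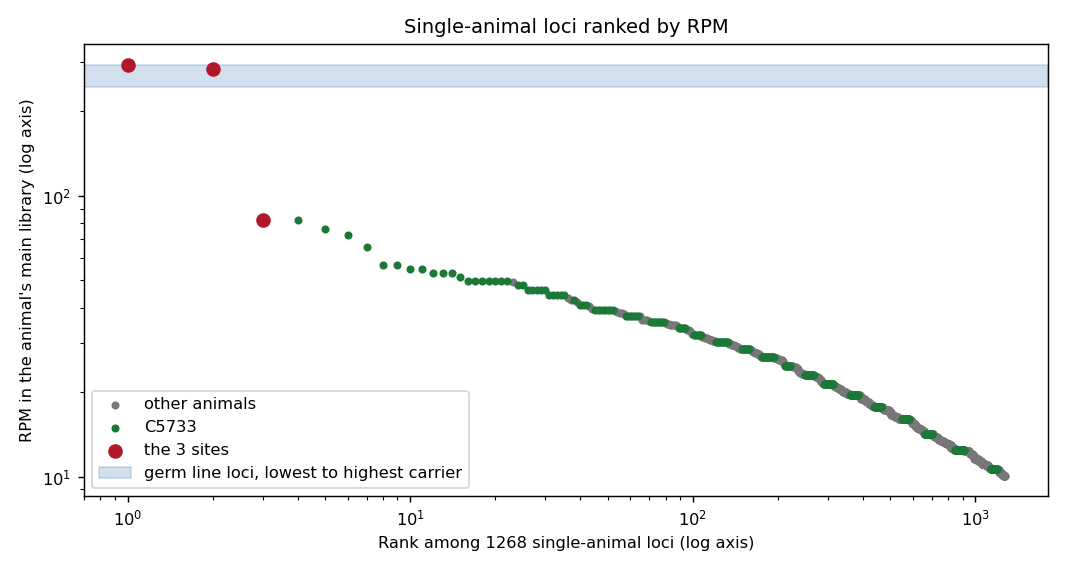
RPM (log axis) of the 1268 single-animal loci by rank (log axis), with the band from the lowest to the highest carrier of the 3 germ line loci, 244 to 293 RPM. Palld and the chromosome 6 site lie at the level of the band, and Syt7 leads the remaining loci at 81.9 RPM, beside the first of C5733.

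The repeat of H03387 gives the error of a single library at different read numbers. Of its 53 other single-animal loci, 29 were called again at 10 RPM, and 52 had at least 1 read in both libraries. The SD of the log2 ratio between repeat and first library was 0.96 for these 52 loci, 0.10 for 5 heterozygous and 0.16 for 2028 fixed loci. Over 5 animals with a repeat the SD was 0.08 to 0.15 for heterozygous loci. Of the single-animal loci of C7415, 17 of 30 were called in both libraries (SD 0.80), and of C5731 15 of 17 (SD 0.48). Single-animal loci were chosen at 10 RPM or more in the first library, so a lower value in the repeat is partly built in. Neither M05666 nor M05139 had a repeat library, so Palld and Syt7 each rest on 1.

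**Figure D5:**
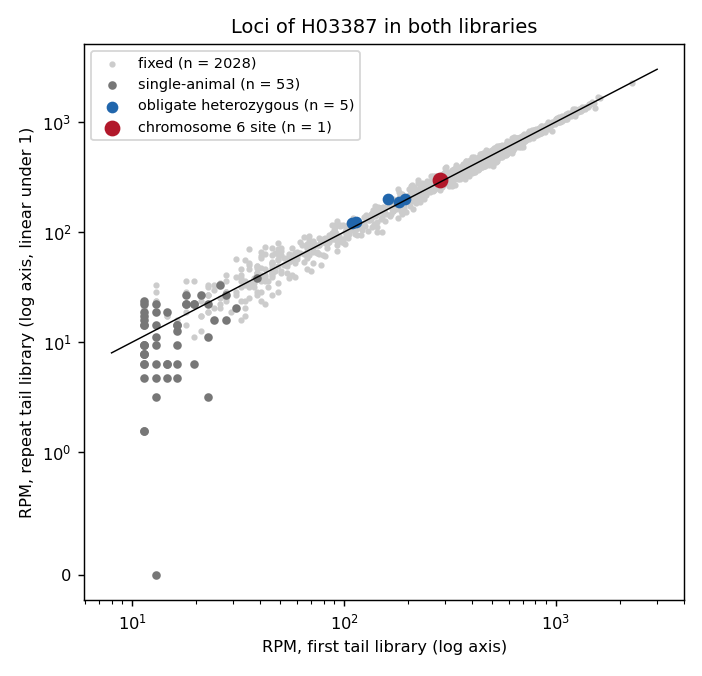
RPM of loci of H03387 in the first (horizontal, log axis) and the repeat tail library (vertical, log axis that is linear under 1), with the line of equal values. The chromosome 6 site, at 283 and 298 RPM, lies on the line among the fixed loci, while the weak single-animal loci scatter widely.

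Both genes held a second single-animal locus in another animal, which was weak in each case. C7415, a mating 1 KO animal, had 11 reads (13.7 RPM) in an intron of Palld at chr8:64117286-64117765, 9944 bp from the cluster of M05666, and 4 reads (6.38 RPM) in its repeat library. M05143, a KO sibling of M05139, had 9 reads (14.8 RPM) in an intron of Syt7 at chr19:10508915-10509291, 23384 bp from the strong cluster. Palld also holds a fixed ETn locus, 108529 bp from the cluster of M05666, that gave a median of 599 RPM in the main libraries. Reads somewhere in Palld were thus present in all 87 libraries, and in Syt7 in 9, with no more than 9 reads outside M05139.

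Genes that work with both proteins were counted from lists. Of 22225 protein-coding genes, 4.49% held a called locus in a main library and 1.75% a single-animal locus with C5733 left out. Among 19 genes of the palladin family and its partners 3 held a single-animal locus. Besides Palld these were Lpp, a focal adhesion protein, at 13.9 RPM in C6767, and Arhgap26 at 10.2 RPM in H04408. Among 17 synaptotagmins there were 2, Syt7 and Syt14 (12.3 RPM in C7417), and among 12 exocytosis partners such as Snap25, Stx1a and Vamp2 there were 0. The genes of these lists are long, with median lengths of 71335, 59468 and 27352 bp against 15427 bp over all coding genes, and the first 2 lists hold the chosen members. Their shares are therefore not read as different from the background. Of the 854 single-animal loci, Palld and Syt7 among them, 47.4% overlapped a coding gene. The share was 23.8% of the 4900 loci called in a main library and 19.7% of 2159 fixed loci. The part of the genome that lies in coding genes was not computed, so no preference for genes is read from these shares.

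The genotype labels of the carriers could not be checked from these reads. The captured locus that separates B6 WT (44.9 to 46.4 RPM, n = 2) from B6 KO animals (0, n = 12) also held 0 reads in all 8 mating 3 animals, WT included.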

How the data were processed

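Per the study's methods, the authors hybridised tagmented genomic DNA to RNA probes for the LTR ends, aligned each mate on its own to mm9 with Bowtie, dropped duplicates (SAMtools), retained unique alignments with an ETn mate and merged those within 1000 bp (bedtools). The processing notes name these tools, with versions not given in the sources used here. Each deposited file lists regions of 1 library with a raw read count, not normalized and not pooled. The authors' removal of regions near annotated or known polymorphic ETn elements was not applied here.

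Counts were divided by the library total (525419 to 1046650 reads) to give RPM, which the study also used. A locus was called at 10 RPM, and called regions within 1000 bp were joined over libraries, which gave 5018 loci. Intervals are exact (Clopper-Pearson, 95%) and cover counting error only. A library with 0 reads allows up to 3 reads. The grouping of loci was tested on simulated data in which animals without an element held no read there. The rules that require no read in a parent or ancestor could not fail in that test. Groups came from the labels. Some labels give a parent's number 1 digit short, and it was taken as the sequenced parent of that mating. Littermates share parents, and each library is 1 animal.

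Coordinates were compared with the NCBIM37 reference (the assembly of mm9), where 0 of 786023 regions passed the end of their chromosome. GENCODE vM1 of that build gave the genes. Probe matches used blastn 2.17.0 (word size 11, e-value 1e-05), and other steps Python 3.11.15 with numpy 2.4.6, pandas 2.3.3 and scipy 1.17.1. The members and gene lists were chosen with earlier results of these data known. Genes named are the members, their neighbours, the gene nearest the third site, the germ line loci and the 3 next single-animal loci of each carrier, of which 1 is not reported here. Other genes holding a single-animal locus in a list were named after their values were seen. Alternatives covered thresholds, joining, locus width, chromosomes, parents' libraries, scaling and leaving out each sibling.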

Additional observations from a re-analysis of the deposited data

Results flagged for a closer look

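The level of M05666 at Palld, 293 RPM, stood apart from the other 3 mating 3 KO animals, which held 0, and that of M05139 at Syt7, 81.9 RPM, from the other 3 mating 3 WT animals, also at 0. In both groups the gap to the nearest sample was the whole range of the group. A group of zeros with 1 positive value is always marked in this way, and both sites were chosen for it. Of 7 groups checked these 2 were marked. Groups with all values equal, such as those with no read at a site, or with too few animals were not checked. The rule marks about 1 in 20 groups by chance, a rate that does not apply to groups chosen by their values. The numbers of single-animal loci and the median heterozygous RPM of the mating 3 groups, and Cyfip2 over its 6 carriers, were not marked. No further library other than the repeat of H03387 held 3 or more reads at a site.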

How the results depend on the processing

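Of the alternative values, 87 stayed within the error of the value reported, 12 moved and 2 turned. The 87 include values that could not change, since scaling to the fixed loci leaves a ratio within 1 library as it is. They also include a cutoff of 20 RPM in the carrier, which left the number of heterozygous loci and the ratio unchanged at all 3 sites. The level relative to obligate heterozygous loci ran from 1.49 to 1.73 times the median for Palld and from 0.393 to 0.455 for Syt7 over 13 alternatives each. For the chromosome 6 site it became 2.49 with 50 RPM in the carrying parent, with loci under 2000 bp wide, and with loci not called in B6. Relative to fixed loci under 2000 bp wide, the ratio turned from below to above 1 for Palld (2.79) and the chromosome 6 site (2.66), and moved to 0.746 for Syt7; the cause was not tested. Relative to other single-animal loci, Syt7 moved to 8.83 at a threshold of 5 RPM and 3.31 at 20 RPM, and the chromosome 6 site to 34.8 and 11.2, since the threshold sets the lowest value of that class. This ratio could not be had for Palld, because M05666 held 0 other single-animal loci at each threshold tried. Libraries of other animals with a read near Palld rose from 0 to 3 within 1000 bp and to 7 within 10000 bp. The median coefficient of variation between siblings ran from 5.46 to 6.65% when each sibling was left out. No paired analysis was possible because each site is carried by 1 animal and no test compares groups.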
